A study of Mus musculus with 3 samples.

Results

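The 10 genes described here encode the inhibitory receptor PD-1 (Pdcd1), its ligands PD-L1 (Cd274) and PD-L2 (Pdcd1lg2), the B7 family ligands Cd80, Cd86 and Cd276, the CD47 and SIRPα pair (Cd47 and Sirpa), and galectin-9 and VISTA (Lgals9 and Vsir). They were chosen by name as the genes of the PD-1 axis and of related checkpoint pathways, and all 10 were among the 30415 gene symbols of the 3 matrices. The hearts came from NOD/SCID mice given pembrolizumab, an antibody against PD-1, atezolizumab, an antibody against PD-L1, or an isotype antibody as control. Antibody was injected on days 0 and 7, with harvest on day 14. Each group is 1 droplet single-cell library from a pool of 3 hearts. The treatment tags of the antibody libraries are crossed against their titles: PD1/PEM is tagged atezolizumab and PDL1/ATZ is tagged pembrolizumab. Libraries are called by their titles here, and no difference can be assigned to an antibody by name. All 3 groups share the NOD/SCID background, which lacks functional T and B lymphocytes. With 1 library per group no test was possible. Values are sums of unique molecular identifiers (UMIs, each standing for 1 captured transcript), and every interval is a 95% interval that covers counting error only.

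PD-1 is an inhibitory receptor of activated T lymphocytes, and in the heart PD-L1 is known from endothelial cells, where interferon raises it. CD80 and CD86 are carried by antigen-presenting cells such as macrophages and bind CD28 and CTLA-4 on T lymphocytes. CD47, found on most cells, binds SIRPα on macrophages as a signal against engulfment. The NOD strain carries a Sirpa allele whose product binds human CD47 strongly. Pembrolizumab was raised against human PD-1 and does not appreciably bind the mouse receptor, whereas atezolizumab binds both human and mouse PD-L1.

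The PD1/PEM library held 6388 cells and 14766346 UMIs, the PDL1/ATZ library 11599 cells and 15144668 UMIs, and the isotype library 9510 cells and 16677883 UMIs. PDL1/ATZ stood apart from both other libraries. Its cells had a median mitochondrial share of 8.04%, beside 26.9% in PD1/PEM and 27.1% in isotype. PD1/PEM and isotype shared 23 cell barcodes, and PDL1/ATZ shared none with them. A further 2893 symbols had UMIs in PDL1/ATZ only and 1942 in the other libraries only, none of them among the 10 genes. Treatment and whatever else sets this library apart cannot be told apart. Levels are given as CPM, UMIs per 1000000 UMIs of nuclear-encoded genes, and can be compared within a gene but not between genes. Over all cells of a library, fewer cells of a type and less RNA per cell cannot be told apart.

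The promoters of Cd80, Lgals9 and Vsir, which were called apart from isotype below, and of Cd274 are shown because interferon and NF-kB are known inducers of several of these ligands. Each stretch holds the 250 bases before the gene's start in RefSeq, build GRCm38.p6, read 5′ to 3′ on the strand of the gene. Capitals mark matches on either strand to an interferon-stimulated response element (GAAA, any 2 bases, GAAA) or to an NF-kB motif (GGGA, any 4 bases, CC).
Cd274 (chr19:29367188-29367437, plus strand): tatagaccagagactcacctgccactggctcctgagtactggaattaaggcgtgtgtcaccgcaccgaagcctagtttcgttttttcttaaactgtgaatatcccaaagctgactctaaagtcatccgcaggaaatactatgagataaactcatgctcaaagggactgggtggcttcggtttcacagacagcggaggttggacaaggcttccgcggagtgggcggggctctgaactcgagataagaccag
Cd80 (chr16:38458683-38458932, plus strand): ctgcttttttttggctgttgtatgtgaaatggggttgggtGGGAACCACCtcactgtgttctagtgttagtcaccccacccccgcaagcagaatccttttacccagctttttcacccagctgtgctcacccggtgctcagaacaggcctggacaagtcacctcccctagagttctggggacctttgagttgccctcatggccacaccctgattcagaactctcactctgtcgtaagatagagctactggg
Lgals9 (chr11:78984925-78985174, minus strand): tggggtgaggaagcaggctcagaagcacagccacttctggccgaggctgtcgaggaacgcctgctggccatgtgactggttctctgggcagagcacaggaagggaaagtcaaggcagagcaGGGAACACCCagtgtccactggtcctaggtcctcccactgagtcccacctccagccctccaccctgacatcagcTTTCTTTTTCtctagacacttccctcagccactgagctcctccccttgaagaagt
Vsir (chr10:60346601-60346850, plus strand): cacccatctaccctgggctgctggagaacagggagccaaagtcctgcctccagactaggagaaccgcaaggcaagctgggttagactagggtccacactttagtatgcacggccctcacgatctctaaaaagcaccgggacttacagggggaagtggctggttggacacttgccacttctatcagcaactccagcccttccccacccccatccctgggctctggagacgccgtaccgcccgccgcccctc
The Lgals9 stretch held an interferon-stimulated match 55 to 46 bases and an NF-kB match 129 to 120 bases before the start, and another interferon-stimulated match lay 16 to 25 bases after it. Cd80 had an NF-kB match 210 to 201 bases before its start. Of all 32851 RefSeq windows of 300 bases, which reach 50 bases past the start, 3.44% held the interferon-stimulated motif, 20.7% the NF-kB motif and 8.3% the gamma-activated site (TTC, any 3 bases, GAA). Of the 9 windows of these genes, 1 held the first, 3 the NF-kB motif, among them that of Pdcd1lg2, and 0 the gamma-activated site. These matches are descriptions, and no match in Cd274 or Vsir says only that these letters are not in the window. Cd86 and Sirpa had no entry.

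PD-1 itself was at the edge of detection. Pdcd1 had 5 UMIs in PD1/PEM and 16 in PDL1/ATZ, against 7 in isotype. These are 0.457 CPM (0.148 to 1.07), 1.15 CPM (0.655 to 1.86) and 0.567 CPM (0.228 to 1.17), and all 3 intervals overlap. Of the 8 T lymphocyte markers, Cd3e had 146 UMIs in PD1/PEM and 116 in PDL1/ATZ, against 92 in isotype, and Cd4 had 41 and 39, against 33. The other 6 had 25 UMIs or fewer in each library, and Cd3d had 1 UMI in PD1/PEM and 0 in PDL1/ATZ, against 2 in isotype. No cell of any library held 3 of the 8 markers, and none held 3 of the B lymphocyte or NK cell markers.

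PD-L1 mRNA was detected at similar levels in all libraries, in CPM over UMIs of nuclear-encoded genes. Cd274 had 178 UMIs in PD1/PEM and 252 in PDL1/ATZ, against 185 in isotype, or 16.3, 18 and 15 CPM. It was found in 2.76% of PD1/PEM cells (exact binomial interval 2.37 to 3.19), 2.06% of PDL1/ATZ cells (1.81 to 2.34) and 1.87% of isotype cells (1.61 to 2.16), with at most 3 UMIs in a cell. The PD1/PEM and isotype shares have intervals that do not overlap, but shares also depend on depth. Median depth was 2013.5, 1010 and 1532.5 UMIs per cell. The ratio of Cd274 CPM to isotype was 1.09 (0.879 to 1.34) for PD1/PEM and 1.2 (0.991 to 1.46) for PDL1/ATZ, and both intervals hold 1. This reading depends on the scale. With CPM over all UMIs every PDL1/ATZ ratio is higher, that of Cd274 included. The median log2 ratio of all genes in that comparison then goes from 0.26 to 0.58. Pdcd1lg2, the PD-L2 gene 22.8 kb downstream of Cd274 on chromosome 19, had 22 UMIs in PD1/PEM and 33 in PDL1/ATZ, against 23 in isotype. Its ratios of 1.08 (0.574 to 2.03) and 1.27 (0.722 to 2.26) have intervals that reach past 2-fold. Cd274, Pdcd1lg2 and Cd276 each overlap a gene on the opposite strand. Whether the counting used strand is not stated in the labels, so reads of such partners may not be told apart.

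Of the costimulatory ligands, Cd86 was called higher in both antibody libraries and Cd80 in PD1/PEM. Cd86 had 358 UMIs in PD1/PEM and 515 in PDL1/ATZ, against 212 in isotype, or 32.7 CPM (29.4 to 36.3), 36.9 CPM (33.7 to 40.2) and 17.2 CPM (14.9 to 19.7). Its ratio was 1.91 (1.6 to 2.27) for PD1/PEM and 2.15 (1.83 to 2.53) for PDL1/ATZ. Cd80 had 124 UMIs in PD1/PEM and 118 in PDL1/ATZ, against 71 in isotype, or 11.3, 8.45 and 5.75 CPM. Its ratio was 1.97 (1.46 to 2.68) for PD1/PEM and 1.47 (1.08 to 2.0) for PDL1/ATZ, and 1.23 (0.906 to 1.67) relative to the median gene of the PDL1/ATZ comparison, an interval that holds 1. With every cell thinned to 700 UMIs the PD1/PEM ratio of Cd80 was 1.66 (0.949 to 2.92), an interval that holds 1, on 30 UMIs in PD1/PEM and 26 in isotype. Cd276, the gene of B7-H3, had 94 UMIs in PD1/PEM and 163 in PDL1/ATZ, against 99 in isotype, with ratios of 1.07 (0.799 to 1.44) and 1.45 (1.13 to 1.89).

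Cd47 had the narrowest intervals of the 10 genes and stayed close to isotype. It had 1579 UMIs in PD1/PEM and 1991 in PDL1/ATZ, against 1690 in isotype, or 144, 142 and 137 CPM. It was found in 21.3%, 15.2% and 15.8% of cells, at median depths of 2013.5, 1010 and 1532.5 UMIs per cell. The ratio was 1.05 (0.984 to 1.13) for PD1/PEM and 1.04 (0.975 to 1.11) for PDL1/ATZ; relative to the median gene of the PDL1/ATZ comparison it was 0.869 (0.814 to 0.928), on the other side of 1. Its receptor gene Sirpa had 402 UMIs in PD1/PEM and 609 in PDL1/ATZ, against 390 in isotype, with ratios of 1.16 (1.01 to 1.34) and 1.38 (1.21 to 1.57). Sirpa has close paralogs with which its reads may be shared, so its counts are uncertain to that extent. The paralogs Sirpb1a and Sirpb1b had 10 and 16 UMIs in PD1/PEM and 13 and 23 in PDL1/ATZ, against 7 and 13 in isotype.

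Lgals9 and Vsir were called higher in PDL1/ATZ. Lgals9, whose product galectin-9 binds the receptor TIM-3, had 482 UMIs in PD1/PEM and 832 in PDL1/ATZ, against 441 in isotype, or 44.1, 59.5 and 35.7 CPM. Its ratio was 1.23 (1.08 to 1.41) for PD1/PEM and 1.67 (1.48 to 1.87) for PDL1/ATZ. Vsir, the gene of the checkpoint protein VISTA, had 441 UMIs in PD1/PEM and 723 in PDL1/ATZ, against 336 in isotype, or 40.3, 51.7 and 27.2 CPM. Its ratio was 1.48 (1.28 to 1.71) for PD1/PEM and 1.9 (1.67 to 2.17) for PDL1/ATZ. Vsir lies inside the longer gene Cdh23, which is read from the opposite strand. Beside these values, the summed markers of several cell types differed from isotype in PDL1/ATZ. Cardiomyocyte markers were at 0.313, with 12 of 12 called lower. Fibroblast markers were at 0.781, with 6 of 12 called lower and 1 higher. Endothelial markers were at 1.46, with 6 of 14 called higher. Erythroid markers were at 1.69, with 3 of 4 called higher and 1 lower. The lower one was Hba-a2, at 56.7 CPM in PDL1/ATZ against 400 CPM in isotype. Of all genes 28.8% were called higher and 10.3% lower there. In PD1/PEM the sums of these lists, in the same order, were at 0.728, 1.15, 1.16 and 1.82. The part of these differences in the levels of the 10 genes was not tested.

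**Figure D1:**
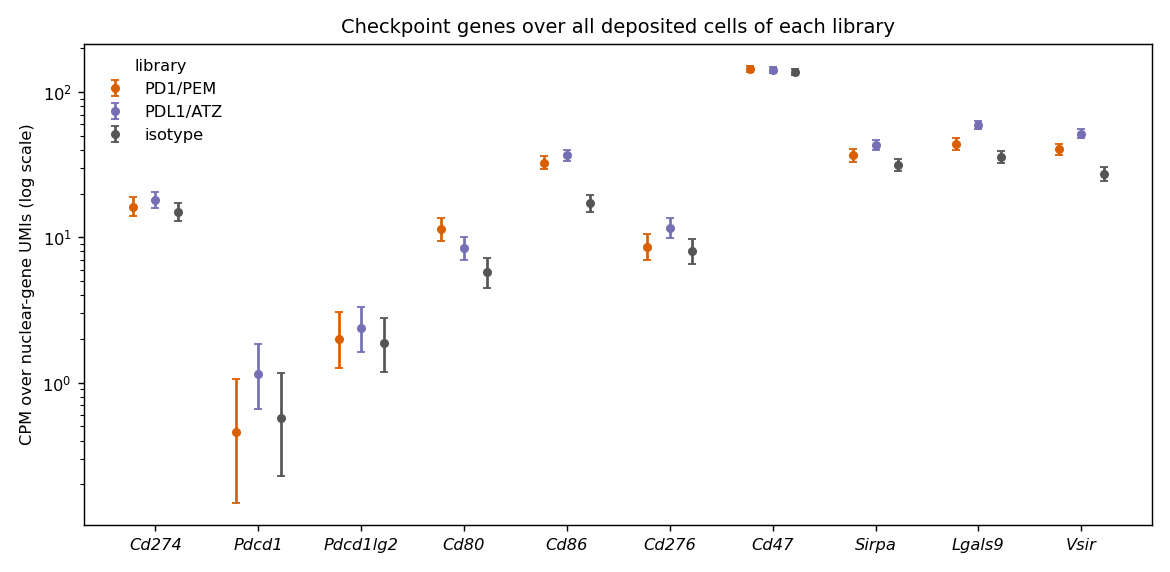
Level of each gene over all deposited cells of the 3 libraries, in CPM over nuclear-gene UMIs on a log axis, with 95% exact Poisson intervals as bars. Cd86 stood at 32.7 CPM in PD1/PEM and 36.9 CPM in PDL1/ATZ, against 17.2 CPM in isotype, while the 3 Cd274 intervals overlap.

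A gene with at least 50 UMIs over both libraries was called apart from isotype at a ratio of at least 1.5-fold, in either direction, with an interval that left out 1. For PD1/PEM, 8 of the 10 genes had enough UMIs and 2 were called, Cd80 and Cd86, both higher. Over all 14735 genes tested in that comparison 8.63% were called, 4.97% higher and 3.66% lower. For PDL1/ATZ, 9 of the 10 genes had enough UMIs and 3 were called, Cd86, Lgals9 and Vsir, all higher. There the background was larger: 39.1% of 15483 genes were called, 28.8% higher and 10.3% lower, so that 3 of 9 is close to the background. The median log2 ratio was 0.26 for the 8 genes in PD1/PEM beside 0.01 over all genes, and 0.54 for the 9 genes in PDL1/ATZ beside 0.26 over all genes.

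The median gene of the PDL1/ATZ comparison thus lay 1.2-fold above isotype. Relative to it, Cd86 was at 1.79 (1.52 to 2.11) and Vsir at 1.59 (1.39 to 1.81), and both kept the call. Lgals9 was at 1.39 (1.24 to 1.57) and lost it, and Cd274 was at 1.01 (0.828 to 1.22). On that scale 34.2% of all genes were called, 16.5% higher and 17.6% lower. In PD1/PEM the same scaling left Cd80 at 1.96 (1.45 to 2.67) and Cd86 at 1.9 (1.6 to 2.26), with 8.61% of all genes called, 4.83% higher and 3.77% lower.

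**Figure D2:**
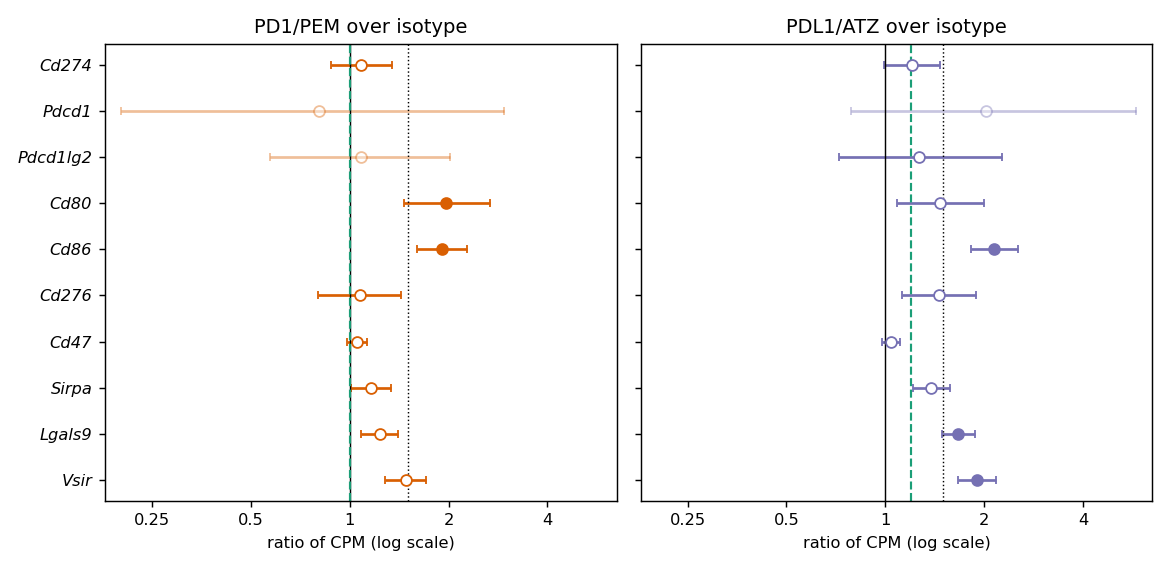
Ratio of CPM to isotype for PD1/PEM (left) and PDL1/ATZ (right) on log axes, with 95% counting intervals. Filled points passed the call of 1.5-fold (dotted line), pale points had under 50 UMIs over both libraries, and the dashed line is the median of all genes; Cd86 is filled in both panels, at 1.91 and 2.15.

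Which cells held the transcripts was read from marker genes. Holding 3 different markers did not separate cells: 3 cardiomyocyte markers were reached by 99.6% or more of the cells of each library and 3 endothelial markers by 77.8% or more. Set against cells with cardiomyocyte markers only, none of the 10 genes was called higher at 2-fold in cells with 3 endothelial, macrophage or fibroblast markers, but few had the 50 UMIs to be tested. In PD1/PEM, PDL1/ATZ and isotype 5, 8 and 6 were tested for the endothelial group, 0, 3 and 1 for the macrophage group and 1, 4 and 2 for the fibroblast group. Over all genes the endothelial calls were 0.985, 0.656 and 0.392% in PD1/PEM, PDL1/ATZ and isotype, the macrophage calls 1.82, 2.63 and 1.58% and the fibroblast calls 0.177, 0.476 and 0.116%.

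Cells were therefore also grouped by the share of their UMIs that fell on a marker list, a rule chosen after the data had been seen. It asked for at least 5 UMIs of the list and at least 2-fold the library's own share, for exactly 1 of the endothelial, macrophage, fibroblast and cardiomyocyte lists. Macrophage-rich cells numbered 242 in PD1/PEM, 247 in PDL1/ATZ and 157 in isotype, which are 3.79%, 2.13% and 1.65% of cells. These shares depend on the limit and, through the minimum of 5 UMIs, on depth. At 4-fold the library's share they were 1.41, 1.4 and 1.22%, and at 6-fold 0.611, 0.828 and 0.641%. In the same libraries endothelial-rich cells numbered 194, 295 and 395, fibroblast-rich cells 353, 774 and 604 and cardiomyocyte-rich cells 38, 316 and 4. Such a group is a range of a score and not a cell type: 42, 26 and 2 cells lay within 10% of the macrophage limit. Macrophage-rich cells held a median of 7, 8 and 7 macrophage-marker UMIs, and the cells of no group a median of 1 in each library. They also held a median of 12, 12 and 9 endothelial-marker, 7, 3 and 5 fibroblast-marker and 59, 19 and 70 cardiomyocyte-marker UMIs. At 4-fold the library's share, the leading genes other than the markers were myeloid ones such as Ms4a6d, Cd84 and Ccl6 in PD1/PEM, Ccl9, Cd37 and Btk in PDL1/ATZ, and Fcrls, Pld4 and Vsig4 in isotype.

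Cd86 and Sirpa were higher in macrophage-rich cells than in the cells of no group in every library. Cd86 stood at 78.6 CPM in macrophage-rich cells and 30 CPM in the cells of no group in PD1/PEM, at 261 and 28.5 CPM in PDL1/ATZ, and at 94.1 and 14.9 CPM in isotype. The ratios were 2.62 (1.87 to 3.59), 9.17 (7.48 to 11.2) and 6.31 (4.15 to 9.32). Cd86 was found in 14.5, 31.2 and 14.6% of macrophage-rich cells, at a median depth of 3129, 2308 and 2688 UMIs. In fibroblast-rich cells, which should lack it, the shares were 4.53, 3.36 and 1.66% at a median depth of 1775, 1067 and 1452.5 UMIs. The cells of no group, at 4.66, 3.0 and 1.85% and a median depth of 1978.5, 992 and 1536 UMIs, were close to these shares, which does not set them above the background of free RNA. Of the cells with 3 or more Cd86 UMIs, 3 of 6 in PD1/PEM, 17 of 26 in PDL1/ATZ and 2 of 3 in isotype were macrophage-rich, which leaves 3, 9 and 1 such cells outside that group.

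Sirpa stood at 82, 163 and 137 CPM in macrophage-rich cells of PD1/PEM, PDL1/ATZ and isotype, and at 33.6, 39 and 28.6 CPM in the cells of no group. Its ratios were 2.44 (1.76 to 3.32), 4.18 (3.29 to 5.26) and 4.78 (3.41 to 6.55). With marker shares of 4-fold the Sirpa ratios were 3.74, 5.54 and 5.62, and with 6-fold 6.55, 7.27 and 5.51. The Cd86 ratios were 3.88, 10.8 and 7.75 at 4-fold and 4.18, 12.7 and 9.83 at 6-fold. Both genes were above the cells of no group in all 3 libraries at all 3 limits. Over all genes 3.38, 4.27 and 3.22% were called higher at 4-fold and 3.73, 4.53 and 3.48% at 6-fold.

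Cd80 was called higher in macrophage-rich cells of PD1/PEM, at 2.39 (1.29 to 4.13) on 15 UMIs, and of isotype, at 3.34 (1.18 to 7.7) on 6 UMIs. In PDL1/ATZ it was at 2.08 (0.921 to 4.12) on 9 UMIs. Cd276 was called in PD1/PEM, at 2.47 (1.18 to 4.69) on 11 UMIs, and was at 1.64 in PDL1/ATZ and 1.13 in isotype. These calls moved with the marker share. With 4-fold, Cd80 was at 4.95 (2.31 to 9.44) in PD1/PEM and 3.63 (1.62 to 7.15) in PDL1/ATZ, both called, and at 2.67 (0.536 to 8.13) in isotype, not called. With 6-fold it was called in PD1/PEM only, at 5.54 (1.77 to 13.3). Cd276 in PD1/PEM was at 3.2 (1.02 to 7.77) with 4-fold, called, and at 2.87 (0.342 to 10.7) with 6-fold, not called. In all, 4 genes were called higher at 2-fold in macrophage-rich cells of PD1/PEM, 2 in PDL1/ATZ and 3 in isotype, beside 1.95, 3.37 and 2.27% of all genes other than the markers. No gene was called higher in endothelial-rich cells, beside 1.02, 0.599 and 0.847% of all genes in PD1/PEM, PDL1/ATZ and isotype. None was called higher in fibroblast-rich cells, beside 1.81, 0.818 and 1.32%, or in cardiomyocyte-rich cells, beside 2.95, 4.47 and 0.782%. In the 38 cardiomyocyte-rich cells of PD1/PEM 2 genes were called lower, Cd47 at 0.36 (0.117 to 0.843) on 5 UMIs, and Vsir, which had 0 UMIs there. A count of 0 was set at 3 counts, or 30.9 CPM, and Vsir stood at 38.3 CPM in the cells of no group. The exact Poisson interval of a count of 0 reaches above 3 counts, so this gap is narrow. In PDL1/ATZ and isotype 0 were called lower, with Cd47 at 0.936 (0.706 to 1.22) in PDL1/ATZ and at 0 UMIs in the 4 cells of isotype. Over all genes 2.94, 3.68 and 0.0244% were called lower in cardiomyocyte-rich cells of PD1/PEM, PDL1/ATZ and isotype.

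**Figure D3:**
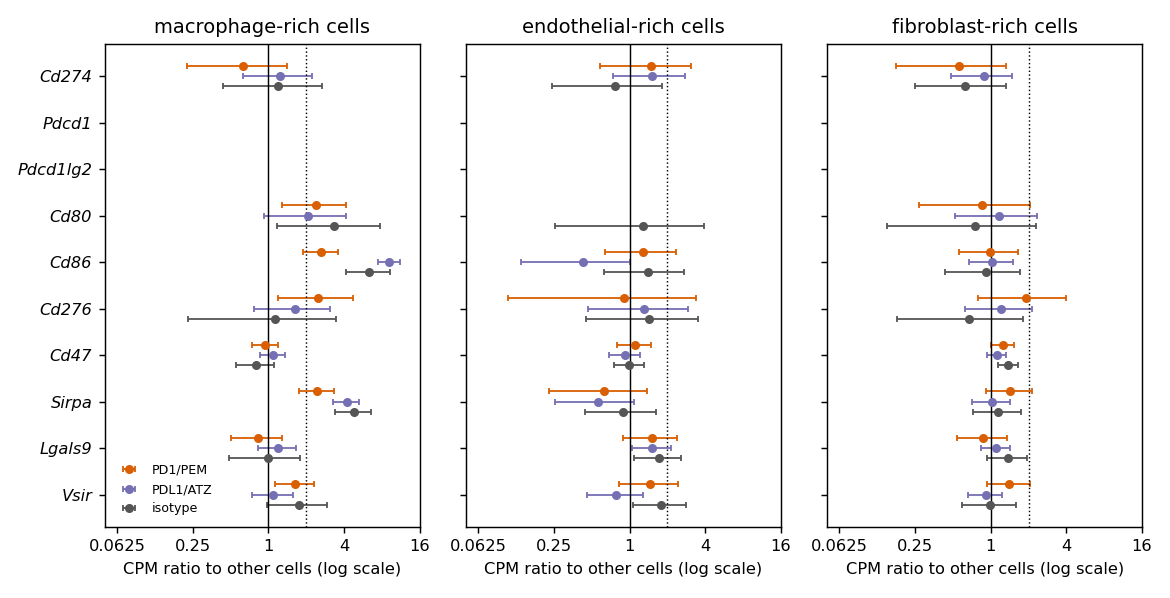
Ratio of each gene's CPM in macrophage-rich, endothelial-rich and fibroblast-rich cells to the cells of no group, on log axes with 95% counting intervals, for each library; genes under 50 UMIs and groups with 0 UMIs are left out and the dotted line is at 2-fold. Cd86 and Sirpa lie right of 2-fold in the macrophage panel in all 3 libraries, Cd86 at 2.62, 9.17 and 6.31.

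Counted by macrophage-marker UMIs per cell, Cd86 stood in PD1/PEM at 27.1 CPM in cells with none, 51.6 CPM with 5 to 9 and 137 CPM with 10 or more. In PDL1/ATZ these levels were 24.6, 163 and 322 CPM, and in isotype 13.6, 62.9 and 163 CPM. Cd86 was thus highest in the cells with the most macrophage markers in all 3 libraries. Cells with 10 or more numbered 59, 108 and 36 and were deep, with a median of 3651, 2721.5 and 2780.5 UMIs, beside 1546, 915 and 1327 in cells with none. Cd274 had 2, 3 and 1 UMIs in the cells with 10 or more, or 12.4, 11.2 and 12.5 CPM, and stood at 19.4, 16.3 and 13.8 CPM in cells with none.

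**Figure D4:**
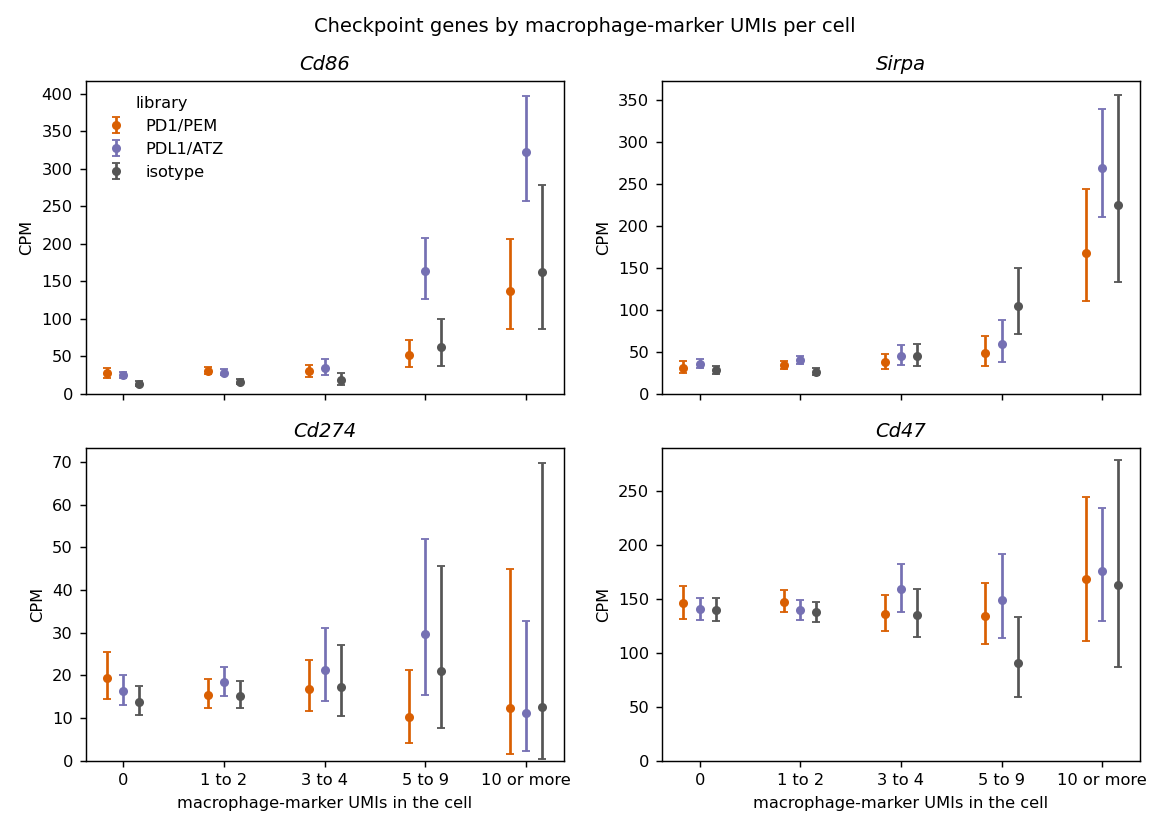
CPM of 4 of the genes in cells grouped by their number of macrophage-marker UMIs, with 95% exact Poisson intervals. In cells with 10 or more, Cd86 reached 137 CPM in PD1/PEM, 322 CPM in PDL1/ATZ and 163 CPM in isotype, and Sirpa 168, 270 and 225 CPM.

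The excess of Cd86 over isotype was also present in the counts outside macrophage-rich cells. In the cells of no group Cd86 was 2.01 (1.65 to 2.46) times isotype in PD1/PEM and 1.91 (1.58 to 2.32) times in PDL1/ATZ. In fibroblast-rich cells, which should lack it, these ratios were 2.18 (0.931 to 5.38) and 2.15 (1.01 to 4.96). Levels in both groups were not set above the background of free RNA, so expression by other cells cannot be read from this excess. Within macrophage-rich cells the PD1/PEM ratio was 0.834 (0.517 to 1.36), an interval that holds 1, and the PDL1/ATZ ratio 2.78 (1.87 to 4.24). With a 4-fold share these were 1.01 (0.543 to 1.86) and 2.72 (1.73 to 4.44). Macrophage-rich cells at the 2-fold share held macrophage markers at 3684 CPM in PD1/PEM, 5081 CPM in PDL1/ATZ and 3751 CPM in isotype. The groups compared thus differed in marker level, and these are not ratios per macrophage. They were also not divided by the median gene. The macrophage markers summed over all cells to 923 CPM in PD1/PEM and 907 CPM in PDL1/ATZ, against 732 CPM in isotype. Of the 16 markers, 14 were above isotype in PD1/PEM and 10 in PDL1/ATZ, and none was at 0 in any library. Over all genes tested 50.9% were above isotype in PD1/PEM and 66.8% in PDL1/ATZ, so 10 of 16 is close to the background. The summed macrophage ratio in PDL1/ATZ was 1.24, near the median gene at 1.2, and in PD1/PEM 1.26 beside 1.0. Without macrophage-rich cells the Cd86 ratio was 2.0 (1.66 to 2.42) for PD1/PEM and 1.85 (1.54 to 2.22) for PDL1/ATZ.

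Cd274 was not called in any marker group. Macrophage-rich cells held 6, 12 and 6 of its UMIs in PD1/PEM, PDL1/ATZ and isotype, endothelial-rich cells 7, 11 and 5, and fibroblast-rich cells 5, 15 and 7. The cells of no group held 157, 207 and 164. Its level in endothelial-rich cells was 24.6, 26.8 and 11.5 CPM, with ratios to the cells of no group of 1.47 (0.581 to 3.1), 1.5 (0.737 to 2.74) and 0.76 (0.244 to 1.81). In the 25% of cells with the highest endothelial-marker share, Cd274 was at 1.33 (0.862 to 2.06), 1.36 (0.957 to 1.96) and 1.27 (0.822 to 1.98) times its level in the lowest 25%, and all 3 intervals hold 1. A difference of that size was not detectable at this depth.

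Lgals9 lay above the cells of no group in endothelial-rich cells without reaching 2-fold. It stood at 66.7, 87.8 and 57.7 CPM in endothelial-rich cells of PD1/PEM, PDL1/ATZ and isotype, with ratios of 1.49 (0.891 to 2.36), 1.52 (1.05 to 2.12) and 1.7 (1.08 to 2.55), of which the PD1/PEM interval holds 1. Between the 25% of cells with the highest and the lowest endothelial-marker share its ratios were 1.54 (1.19 to 1.99), 1.34 (1.1 to 1.64) and 1.3 (0.993 to 1.69). Vsir had ratios of 1.46 (0.828 to 2.41), 0.787 (0.455 to 1.27) and 1.77 (1.07 to 2.79) in endothelial-rich cells, on 16, 17 and 20 UMIs. The PD1/PEM and PDL1/ATZ intervals hold 1, so these values do not set the libraries apart. Between the highest and the lowest 25% its ratios were 1.32 (1.01 to 1.73), 1.1 (0.885 to 1.36) and 1.73 (1.25 to 2.4), all above 1, and the PDL1/ATZ interval holds 1.

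Cd47 was called higher in no group. Fibroblast-rich cells held it at 178, 158 and 185 CPM in PD1/PEM, PDL1/ATZ and isotype, at ratios of 1.25 (1.0 to 1.53), 1.12 (0.942 to 1.32) and 1.38 (1.15 to 1.64) to the cells of no group. In macrophage-rich cells these ratios were 0.939 (0.736 to 1.18), 1.08 (0.852 to 1.35) and 0.79 (0.548 to 1.1). Between the 25% of cells with the highest and the lowest cardiomyocyte-marker share the Cd47 ratio was 0.677 (0.59 to 0.776) in PD1/PEM and 1.18 (1.04 to 1.34) in PDL1/ATZ, against 0.732 (0.639 to 0.837) in isotype. PDL1/ATZ was the library on the other side of 1. Cd86, Sirpa, Lgals9 and Vsir were also below 1 in PD1/PEM, at 0.656, 0.647, 0.482 and 0.626. In isotype they were at 0.822, 0.674, 0.744 and 0.661, of which the Cd86 interval holds 1. In PDL1/ATZ they were at 0.77, 0.812, 0.858 and 1.15, of which the Sirpa, Lgals9 and Vsir intervals hold 1. Median depth in the highest and the lowest 25% was 2805 and 2253 UMIs in PD1/PEM, 858 and 1577 in PDL1/ATZ, and 1720 and 1453 in isotype.

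Likeness of pattern was described over 12 groups of cells (macrophage-rich, endothelial-rich, fibroblast-rich and no group, in each library) by Pearson's r of log2(CPM + 1), centred within each library. These groups share library, depth and free RNA, and the Cd274 values of the marker groups rest on 15 UMIs or fewer, so r is a description. Among 11819 genes with 50 UMIs in each library, Cd274 was most like Gm15494, Susd6, AW554918, Gm10785 and Rbm25, with r between 0.95 and 0.90. Cd47 was most like Cpt2, Adamts14, Slc1a4, Reck and Csrnp1, with r between 0.97 and 0.92. Among the 10 genes, Cd86 and Sirpa had r of 0.91, Cd80 and Sirpa 0.77, Cd274 and Cd86 0.14, and Cd274 and Sirpa -0.10.

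The wider checkpoint lists are read against the same backgrounds, 4.97% of all genes called higher in PD1/PEM and 28.8% in PDL1/ATZ. Relative to the median gene of PDL1/ATZ, Irf1 at 1.41, Cd40 at 1.34, Mertk at 1.38 and Tnfrsf9 at 1.6 (0.893 to 2.97) lost the call as Lgals9 did, and Pvr, Ifngr2, Hif1a and Lrp1, at 0.636, 0.584, 0.629 and 0.624, gained a call as lower. The other checkpoint receptors were scarce. Of 15 genes, 6 had 50 UMIs in the PD1/PEM comparison and 2 were called, both higher: Lag3, the gene of an inhibitory receptor for MHC class II, at 1.73 (1.38 to 2.18), and Havcr2, the gene of the galectin-9 receptor TIM-3, at 2.15 (1.39 to 3.39). In PDL1/ATZ 10 were tested, of which 3 were called higher and 2 lower. Lag3 had 196 UMIs in PD1/PEM and 89 in PDL1/ATZ, against 128 in isotype, and its PDL1/ATZ ratio was 0.614 (0.463 to 0.811), on the other side of 1. Ctla4 was the other one called lower there, at 0.592 (0.413 to 0.844), and Icos, Cd200r1 and Tnfrsf9 were called higher at 3.03, 2.18 and 1.91. Cd28, the gene of the activating receptor for CD80 and CD86, was at 1.17 (0.844 to 1.63) in PD1/PEM and 0.824 (0.587 to 1.16) in PDL1/ATZ. The list's median log2 ratio was 0.31 in PD1/PEM and 0.40 in PDL1/ATZ.

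Of 16 other checkpoint ligands 12 were tested in each comparison. In PD1/PEM 1 was called, Tnfsf9, the gene of the 4-1BB ligand, at 1.79 (1.19 to 2.71). In PDL1/ATZ 4 were called higher: Cd200, whose product restrains myeloid cells, at 2.37 (2.22 to 2.52), Vtcn1 at 2.56 (1.75 to 3.8), Vsig4, the gene of a macrophage complement receptor, at 2.01 (1.53 to 2.68), and Cd40 at 1.6 (1.28 to 2.02). Cd200 had 1714 UMIs in PD1/PEM and 3758 in PDL1/ATZ, against 1403 in isotype, and its PD1/PEM ratio was 1.38 (1.28 to 1.48). The list's median log2 ratio was 0.17 in PD1/PEM and 0.37 in PDL1/ATZ.

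Of 14 genes for the handling and induction of PD-L1, 0 were called in PD1/PEM and 2 in PDL1/ATZ, both higher: Irf1, the gene of an interferon-induced transcription factor, at 1.69 (1.58 to 1.81), and Cmtm4, the gene of a relative of the PD-L1 stabiliser CMTM6, at 1.9 (1.66 to 2.18). Irf1 had 1125 UMIs in PD1/PEM and 2504 in PDL1/ATZ, against 1307 in isotype, and its PD1/PEM ratio was 0.971 (0.896 to 1.05). The signalling genes Stat3, Jak1 and Nfkb1 were at 1.24, 1.27 and 1.09 in PD1/PEM and at 0.928, 0.882 and 1.08 in PDL1/ATZ, none of them called. The list's median log2 ratio was 0.06 in PD1/PEM and -0.09 in PDL1/ATZ.

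Among 13 genes of CD47 and SIRPα signalling and of engulfment, the CD47 ligand Thbs1 was called on opposite sides in the antibody libraries. It had 3130 UMIs in PD1/PEM and 554 in PDL1/ATZ, against 1882 in isotype, at ratios of 1.88 (1.77 to 1.99) and 0.26 (0.236 to 0.286). It was the only gene called of 9 tested in PD1/PEM. Of 10 tested in PDL1/ATZ, 2 were called higher, the engulfment receptor gene Mertk at 1.66 and Pilra at 2.43, and 3 lower, Thbs1, Calr at 0.541 and Ptpn11 at 0.468. Calr encodes calreticulin, a signal for engulfment, and Ptpn11 the phosphatase SHP-2, which PD-1 and SIRPα recruit. The list's median log2 ratio was 0.07 in PD1/PEM and 0.09 in PDL1/ATZ.

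Of 6 genes of T cell signalling below PD-1, 4 were tested in each comparison. Cd247, the gene of the CD3 zeta chain, had 144 UMIs in PD1/PEM and 589 in PDL1/ATZ, against 73 in isotype, and was called higher in both, at 2.23 (1.67 to 2.99) and 7.13 (5.58 to 9.22). Prkcq was called higher in PDL1/ATZ, at 2.71 (2.24 to 3.31). The list's median log2 ratio was 0.25 in PD1/PEM and 0.93 in PDL1/ATZ.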

How the data were processed

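The authors deposited 1 matrix of counts per library, UMIs as whole numbers for each gene and cell. Hearts were digested and run on the 10x Genomics 3′ platform, per the labels' protocols. Cell Ranger, Seurat and the build mm10 are named, per the submitters' processing notes. Tool versions, the annotation, cell filters and any doublet removal were not given in the sources used here. No doublet caller was run, but cells with the most UMIs were left out as an alternative.

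UMIs were summed per library or group of cells with Python 3.11.15, NumPy 2.4.6, SciPy 1.17.1 and pandas 2.3.3, and scaled to CPM. Sums have exact Poisson intervals, shares exact binomial ones and ratios exact conditional binomial ones. Log2 ratios use a pseudocount of 0.5 UMIs. Symbols read in 1 set of libraries only were left out of the PDL1/ATZ comparison. Overlapping genes come from GENCODE M21. Scripts were tested on simulated data.

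All 10 genes, up to 4 genes with the most UMIs of each list, any called gene, and the 5 genes most like Cd274 and Cd47 could be named, but some are not reported here. Genes, lists and rules were chosen with earlier results of these data known. Groups came from titles. Alternatives covered scaling, filters, depth, doublets and class rules.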

Additional observations from a re-analysis of the deposited data

How the results depend on the processing

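No called value changed its direction under the alternatives run. For the counts of calls and the medians of the 10 genes, 73 alternative values stayed within the limits set for a change and 13 moved. For single genes these numbers were 183 and 32. For PD1/PEM the number called was 2, but 1 with cells thinned to 700 UMIs and 0 at a 2-fold limit. For PDL1/ATZ it was 3, but 7 with CPM over all UMIs, 6 with a mitochondrial limit of 25%, which left 2602 isotype cells, and 1 at a 2-fold limit. CPM over all UMIs put the median log2 ratio of all genes in that comparison at 0.58, and the mitochondrial limit put it at 0.29. At the 2-fold limit 1.32% of all genes were called in PD1/PEM and 16.4% in PDL1/ATZ. For thinning, CPM over all UMIs and the mitochondrial limit the share of all genes called is not given, so those counts have no background beside them. By 3 different markers 0 genes were called in macrophage cells over the 3 libraries, where at most 3 of the 10 could be tested, but 4 with thinning and 2 with 4 markers. In macrophage-rich cells 9 were called, but 5 with thinning. In endothelial-rich cells 0 were called, but 2 with the mitochondrial limit and 1 without the 5% of cells with the most UMIs. In fibroblast-rich cells 0 were called, but 1 at a 6-fold share, where such cells numbered 3, 6 and 17 in PD1/PEM, PDL1/ATZ and isotype. In cardiomyocyte-rich cells 0 were called higher, but 1 without the 5% of cells with the most UMIs and 1 with thinning. These counts leave out the 2 genes called lower in cardiomyocyte-rich cells of PD1/PEM. For the marker groups under these alternatives the share of all genes called is not given either, so their counts also have no background. The cause was not tested. The marker-share rule, the ratio to the median gene, the leaving out of macrophage-rich cells and the keeping of symbols read in 1 set of libraries were chosen after seeing the data. No paired analysis was possible because each group is 1 library and the labels give no replicate numbers.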
